A study of Rattus norvegicus and Bos taurus with 6 samples.

Results

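The genes described here are 8 that mark lipid-associated macrophages: Trem2, Gpnmb, Spp1, Olr1, Mmp12, Cd9, Clec4d and Atp6v0d2. They were chosen by name and matched by symbol in any case. All 8 were present among the 25629 genes of the 10x rat file, the 38697 genes of each Parse rat file and the 36075 genes of the cow file. Of the 8, 5 had at least 1 UMI (a unique molecular identifier, which counts 1 captured RNA molecule) in each of the 6 libraries. Exceptions were Spp1 in the mesPVAT-labelled library, and Mmp12 and Clec4d in the 10x library.

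Nuclei came from snap-frozen fat and were profiled by single-nucleus RNA sequencing, with 1 library per condition and no replicates. The rats were male SS/HsdMcwiCrl (Dahl SS) animals on a normal diet, a strain used as a model of salt-sensitive hypertension. Their depots were mesenteric perivascular fat (mesPVAT, profiled once with 10x and once with Parse), retroperitoneal (RP) white fat, thoracic aortic perivascular fat (taPVAT) and subscapular brown fat (BAT). The cow was a lactating female Holstein, and its sample was flank subcutaneous white fat (Parse, the same batch as the Parse rat libraries). Species, sex, depot and lactation change together between the cow and the rats and cannot be told apart. The cow nuclei also went through a finer filter than the rat nuclei, and the 10x library belonged to another batch. By the study's methods, the 10x nuclei were isolated with a different protocol from the Parse nuclei and sorted on DAPI before loading. The 10x reads were also aligned with another pipeline and to another rat reference genome than the Parse rat reads. Among the Parse libraries, taPVAT nuclei were centrifuged at a lower speed than those of the cow and rat white fats. The labels do not say how many animals a library holds.

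Depth differed widely. The rat libraries held 845316 to 6317970 UMIs and the cow library 16827260, and the median was 161 to 1706 UMIs per nucleus in the rat libraries against 3530 in the cow. In the cow, 276 of 2297 nuclei lay above the study's upper limits on UMIs and genes and held 50.7% of its UMIs, so results that rest on them are given with and without them. Doublets were not removed, and the libraries shared 0 barcodes. The white-fat Parse libraries from the rat stood in the opposite order of genes per nucleus to the order the study describes for them, so they are named only by what their labels say, as the mesPVAT-labelled and RP-labelled libraries. Levels are given as CPM, UMIs summed over all nuclei of a library and scaled to that library's total, with exact Poisson 95% intervals that cover counting error only.

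Lipid-associated macrophages are tissue macrophages that gather around dying or overloaded adipocytes, take up lipid and digest it in lysosomes. The receptor TREM2 senses lipids at their surface and, through the adaptor TYROBP and the kinase SYK, turns on a programme of lipid uptake and lysosomal genes. Resident macrophages of healthy fat instead carry scavenger and hyaluronan receptors such as CD163, MRC1 and LYVE1.

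The sequence around a transcription start of a pair of the members is shown. These genes were high in the same cow macrophage-like cluster described further on, as were Spp1, Cd9 and Clec4d, whose sequences are not printed. A rat promoter window from RefSeq (build GRCr8, 250 bases before to 50 after the transcription start) was found for 7 of the 8 members, all but Atp6v0d2. In the sequences, written 5′ to 3′ on the gene's strand, capitals mark matches to TGANTCA (an AP-1 site) and to CATGTG or its other strand CACATG (an E-box of the type read by the MITF family). The Gpnmb window lies at chr4:79340878-79341177 on the plus strand, and that of Olr1 at chr4:164634498-164634797 on the minus strand. The Olr1 window lies inside the annotated span of its gene (164612460 to 164635082), so the start used is not the outermost end of the gene.
Gpnmb: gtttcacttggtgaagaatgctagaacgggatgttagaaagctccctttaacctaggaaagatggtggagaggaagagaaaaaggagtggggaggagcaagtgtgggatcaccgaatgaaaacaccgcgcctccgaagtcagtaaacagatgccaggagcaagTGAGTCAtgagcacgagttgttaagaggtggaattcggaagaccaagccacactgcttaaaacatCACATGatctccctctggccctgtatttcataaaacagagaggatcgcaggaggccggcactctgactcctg
Olr1: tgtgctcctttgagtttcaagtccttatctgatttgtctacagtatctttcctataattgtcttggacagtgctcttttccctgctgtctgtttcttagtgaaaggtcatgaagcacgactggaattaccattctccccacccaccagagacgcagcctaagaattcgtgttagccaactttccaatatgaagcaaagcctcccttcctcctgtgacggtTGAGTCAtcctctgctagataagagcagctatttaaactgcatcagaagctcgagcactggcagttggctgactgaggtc
The AP-1 letters began 87 bases before the start in Gpnmb and 30 before it in Olr1, and the E-box of Gpnmb began 22 bases before it. Searched on both strands, TGANTCA was in the windows of 4 members (Trem2, Gpnmb, Olr1 and Mmp12) and in 7.33% of all 33469 rat windows of that length. CATGTG was in those of Gpnmb and Cd9, and in 14.0% of all windows. These matches describe letters in the rat genome and say nothing of which factor binds, and no cow sequence was used here.

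Among the receptors, Trem2 was scarce in every library. Its level was 8.08 CPM in the 10x mesPVAT library, 7.24 in the mesPVAT-labelled library, 4.73 in the RP-labelled library, 1.37 in taPVAT, 0.158 in BAT and 1.19 in the cow. These rest on 1 to 20 UMIs per library. Over all nuclei the namesake receptor of the programme was thus lower in the cow than in the 10x mesPVAT and the mesPVAT-labelled libraries. The difference was 6.80-fold against the 10x library (95% interval 2.84 to 15.2) and 6.09-fold against the mesPVAT-labelled library (2.72 to 13.1). In the mesPVAT-labelled library, 4 of the 12 Trem2 UMIs lay in the group of 4 very deep barcodes, of which only 50% held the gene. Without these barcodes the level was 5.15 CPM. Within the study's filters the 10x mesPVAT and the mesPVAT-labelled libraries each had 8 Trem2 UMIs (6.86 and 5.15 CPM, against 1.33 in the cow). That is under the minimum of 10 UMIs set for counting a difference.

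Olr1 encodes the scavenger receptor LOX-1, which takes up oxidised lipoprotein. It stood at 11.3, 6.64 and 4.73 CPM in the 10x mesPVAT library and the mesPVAT- and RP-labelled libraries, at 2.75 in taPVAT, at 1.27 in BAT and at 7.25 in the cow. The cow was higher than the brown depots, 2.64-fold over taPVAT (1.51 to 4.97) and 5.73-fold over BAT (2.82 to 13.6), while its interval overlapped those of all 3 white-fat rat libraries.

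Clec4d is a C-type lectin of myeloid cells that binds mycobacterial glycolipids. It was at 0 UMIs in the 10x library, which allows up to 2.42 CPM, and at 3.02, 10.6, 2.75, 1.11 and 5.94 CPM in the mesPVAT- and RP-labelled libraries, in taPVAT, in BAT and in the cow. The interval of the cow (4.84 to 7.23) overlapped that of the RP-labelled library (4.87 to 20.2 on 9 UMIs), and the cow was 5.36-fold higher than BAT (2.51 to 13.7). A single cow nucleus held 24 of the 100 cow UMIs.

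Among the membrane proteins of the endosome and lysosome, Gpnmb (a transmembrane glycoprotein of melanosomes and lysosomes) separated the cow from each rat library. It was at 4.04 CPM in the 10x library, 21.7 in the mesPVAT-labelled library, 36.7 in the RP-labelled library, 8.82 in taPVAT, 5.86 in BAT and 80.9 in the cow. The cow interval of 76.7 to 85.4 CPM overlapped none of the rat intervals over all nuclei. Within the study's filters it was 56.4 CPM (51.4 to 61.7), which overlapped that of the RP-labelled library (36.3, 24.5 to 51.8), and a 2-fold difference from that library was not reached. Over all nuclei the fold ran from 2.21 over the RP-labelled library (1.55 to 3.26) to 20.03 over 10x (8.56 to 61.8), with 13.8 over BAT (9.98 to 19.7).

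Cd9, a tetraspanin that marks these macrophages but is made by many other cells, was at 65.5 CPM in 10x, 17.5 and 24.8 in the mesPVAT- and RP-labelled libraries, 16.9 in taPVAT, 20.6 in BAT and 120.0 in the cow. The cow was 4.83- to 7.12-fold above the Parse rat libraries and 1.83-fold above 10x (1.47 to 2.32). The excess over 10x was not kept with at least 500 UMIs per nucleus. There Cd9 was at 155 CPM in 10x (106 to 219) and 120 in the cow (115 to 125). With 2020 UMIs it made up much of the cow sum, and sums are therefore also given without it.

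Atp6v0d2 encodes a subunit of the vacuolar proton pump found in osteoclasts and lysosome-rich macrophages. Its order was different. It was at 14.5 CPM in the mesPVAT-labelled library and 29.6 in the RP-labelled library, against 1.62 in 10x, 1.18 in taPVAT, 0.9497 in BAT and 5.76 in the cow. The RP-labelled library exceeded the cow 5.13-fold (3.17 to 8.03), whereas the cow exceeded BAT 6.07-fold (2.69 to 16.9).

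Of the secreted members, Spp1 (osteopontin, a matrix protein that attracts macrophages) was scarce in the rat. It was at 1.62 CPM in 10x, 0 UMIs in the mesPVAT-labelled library, 2.37 CPM in the RP-labelled library, 2.35 in taPVAT and 0.9497 in BAT, against 42.9 (39.8 to 46.2) in the cow. The cow was at least 23.7-fold higher than the mesPVAT-labelled library, taking the limit of 3 UMIs for its count of 0 (1.81 CPM, or 0.0991% of its nuclei). It was 18.2-fold higher than taPVAT (10.4 to 35.5) and 45.2-fold higher than BAT (20.7 to 124). The 5 rat libraries gave 0 to 12 Spp1 UMIs each, and the cow 722.

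Mmp12, the macrophage elastase, was the other scarce member. It had 0 UMIs in 10x (a limit of 2.42 CPM), and 5.43, 8.28, 1.18, 0.317 and 1.07 CPM in the mesPVAT- and RP-labelled libraries, in taPVAT, in BAT and in the cow. The mesPVAT- and RP-labelled libraries exceeded the cow 5.08-fold (2.01 to 11.9) and 7.74-fold (2.73 to 19.4), both on fewer than 10 rat UMIs.

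**Figure D1:**
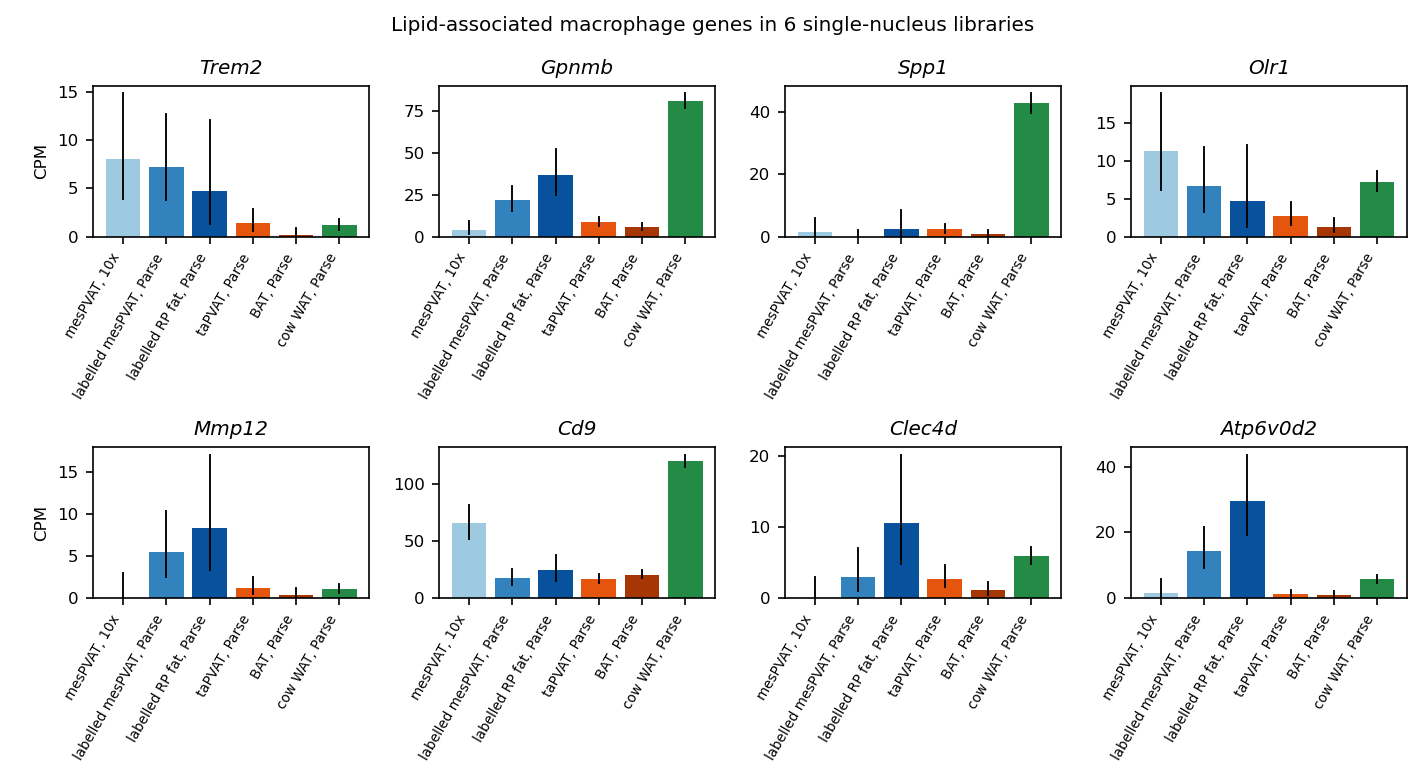
CPM of each member in the 6 libraries, with a scale of its own in each panel; bars are library-wide CPM and lines are exact Poisson 95% intervals. Gpnmb (80.9 CPM), Spp1 (42.9) and Cd9 (120.0) are tallest in the cow, whereas Mmp12, Clec4d and Atp6v0d2 are tallest in the RP-labelled library.

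Counted at a 2-fold difference with at least 10 UMIs in the higher library, the cow was higher for 8 of 8 members against BAT, where 30.2% of the 14010 genes that could be counted were higher in the cow and 19.6% higher in the rat. Trem2 and Mmp12 reached that count on 1 and 2 BAT UMIs, and the interval for Mmp12 (0.809 to 30.03) includes 1. Against taPVAT it was higher for 6 of the 6 members that could be counted, beside 24.5% of all genes. Trem2 (0.866-fold) and Mmp12 (0.909-fold) were under the minimum there and left out. Within the study's filters it was 5 of 6 against taPVAT, where Clec4d stood at 2.65 CPM in the cow (1.66 to 4.01) and 2.46 in taPVAT (1.27 to 4.30). Against the white-fat libraries the count was lower: 3 of 7 members against the mesPVAT-labelled library (background 16.8%), 3 of 5 against the RP-labelled library (21.0%) and 4 of 8 against 10x (29.8%), where Atp6v0d2 was counted on 2 rat UMIs with an interval of 0.961 to 29.9. Within the study's filters Clec4d was no longer counted as higher against 10x, and with at least 500 UMIs per nucleus neither Clec4d nor Atp6v0d2 was. The members left out as under the minimum were all lower in the cow. These were Mmp12 (0.197-fold) against the mesPVAT-labelled library, and Trem2 (0.251), Mmp12 (0.129) and Clec4d (0.558) against the RP-labelled library. The minimum is harder to reach in the rat libraries, which held fewer UMIs than the cow library.
The reverse call, rat higher, was made for Trem2 and Atp6v0d2 against the mesPVAT-labelled library (background 31.4%), for Atp6v0d2 against the RP-labelled library (29.9%) and for Trem2 against 10x (22.9%). Neither call of Trem2 was made within the study's filters or with at least 500 UMIs per nucleus, and that of Atp6v0d2 against the RP-labelled library was lost in the latter. Atp6v0d2 was still higher there, at 28.1 CPM (12.8 to 53.3) against 5.76 in the cow (4.67 to 7.03), but on 9 rat UMIs, under the minimum of 10. Gpnmb and Spp1 were higher in the cow than in each of the 5 rat libraries over all nuclei. The call of Spp1 was kept under each other setting, whereas that of Gpnmb against the RP-labelled library was lost within the study's filters, with at least 500 UMIs per nucleus, in sublibrary 2 alone and at 3-fold. They were 2 of the 5 members that could be counted against all of them, beside 5.74% of 11075 genes. With 1 library per condition these are folds, not tests.

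**Figure D2:**
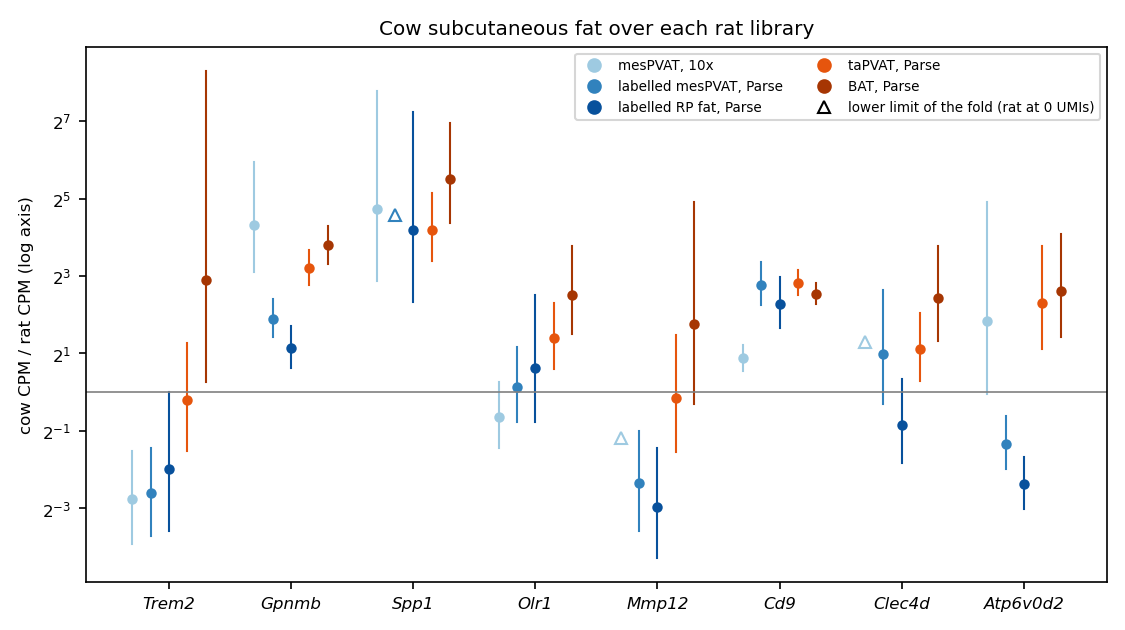
Ratio of cow CPM to the CPM of each rat library for every member, on a log axis, with exact 95% intervals; triangles are lower limits where the rat library had 0 UMIs. Points of Gpnmb and Spp1 lie above 2 against every rat library, and the points of Trem2 against the mesPVAT libraries and of Atp6v0d2 against the white-fat Parse libraries lie below 1.

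Summed over the 8 members, the cow reached 265 CPM (257 to 273) against 92.1 in 10x, 76.1 and 122 in the mesPVAT- and RP-labelled libraries, 37.3 in taPVAT and 31.2 in BAT. The fold was 2.18 to 3.49 over the white-fat libraries, 7.12 over taPVAT and 8.50 over BAT. With at least 500 UMIs per nucleus it was 1.33 over 10x, with an interval that includes 1 (0.980 to 1.86). Over all nuclei but without Cd9 it was 1.495 over the RP-labelled library, 2.48 over the mesPVAT-labelled library, 5.44 over 10x and 13.7 over BAT. A macrophage list that holds no member (12 genes, of which Adgre1 was matched in the rat files alone and Lyve1 in the cow file alone, with Cd14 at 0 in the RP-labelled library) moved the same way, from 217 to 719 CPM in the rat libraries to 1214 CPM in the cow. In such sums, fewer macrophages and less member RNA per macrophage cannot be told apart. Set against that list, member UMIs were 21.8 per 100 list UMIs in the cow (21.1 to 22.6), 20.7 in the RP-labelled library (16.6 to 25.6) and 8.02 to 14.4 in the others. Without Cd9 the value was 11.9 in the cow (11.5 to 12.5) and 16.5 in the RP-labelled library (12.9 to 20.8), and 3.71 to 10.5 in the other rat libraries. With the 10 genes that the files of both species hold, the list was at 204 to 688 CPM in the rat libraries and 1199 in the cow. Member UMIs were then 22.1 per 100 in the cow (21.4 to 22.8), 23.5 in the RP-labelled library (18.7 to 29.1) and 8.44 to 15.3 in the others. With Cd9 in the sum, the order of the first 2 thus depended on the list used and their intervals overlapped. Without Cd9 the RP-labelled library was higher with the 10 genes too, at 18.7 (14.6 to 23.7) against 12.1 in the cow (11.6 to 12.6). Those intervals did not overlap with either list.

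The 3 core genes differed unequally between the cow and the rat. Csf1r, the receptor for colony-stimulating factor and a defining macrophage gene, was at 16.2 to 55.6 CPM in the rat libraries and 164 CPM in the cow. Ptprc (CD45, on all leukocytes) was at 49.9 to 151 CPM in the rat libraries and 144 in the cow, and Mrc1 at 26.4 to 247 and 74.9. Mrc1 was highest in the 10x library, whose lymphatic markers were also high (1081 CPM for that list, against 94.97 to 499 elsewhere).

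Shares of nuclei with a member UMI are not comparable between libraries of unequal depth. At least 1 member was detected in 1.65%, 3.67%, 3.49%, 5.72% and 5.78% of nuclei in the 10x, mesPVAT-labelled, RP-labelled, taPVAT and BAT libraries, and in 39.7% of cow nuclei (37.7 to 41.7). In the cow, Cd9 was found in 29.4% of nuclei, Gpnmb in 14.7%, Spp1 in 8.58%, Atp6v0d2 in 3.09%, Olr1 in 2.96%, Clec4d in 2.48%, Trem2 in 0.784% and Mmp12 in 0.566%. The highest share in any rat library was 3.71%, for Cd9 in BAT. After each cow nucleus was thinned to 1000 UMIs the shares were 7.71% for Cd9, 4.27% for Gpnmb and 2.70% for Spp1, against 1.70%, 0.692% and 0.252% in taPVAT and 1.503%, 0.415% and 0.156% in BAT thinned alike. The cow intervals overlapped neither for any of these 3 members. Nuclei under 1000 UMIs were left out, 0 in the cow but 1119 in taPVAT and 770 in BAT.

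Co-detection asked whether member-positive nuclei were macrophages. In the cow, Csf1r was detected in 83.8% of Olr1-positive nuclei, 78.9% of Clec4d-positive, 63.0% of Gpnmb-positive, 52.3% of Spp1-positive, 45.1% of Atp6v0d2-positive and 43.0% of Cd9-positive nuclei. The share in nuclei without the member was 16.7% to 23.8%. The increase was at least 2 times for 5 of 6 members, beside 47.1% of all cow genes, and member-positive nuclei were deeper than the rest (median 9774 against 3094 UMIs for Gpnmb). Thinned to 1000 UMIs, the share was 20.4% in Gpnmb-positive against 10.3% in Gpnmb-negative nuclei (1.98 times), 16.1% against 10.6% for Spp1 and 13.6% against 10.5% for Cd9. None of these 3 reached 2 times at that depth, where 7.36% of genes did.
Ptprc gave 25.5% of Gpnmb-positive against 9.504% of Gpnmb-negative nuclei at 1000 UMIs, and Mrc1 gave 14.3% against 6.00%. For Spp1, Mrc1 was found in 4.84% of positive and 6.40% of negative nuclei. In taPVAT, Csf1r was detected in 9 of 39 Gpnmb-positive nuclei and 4 of 10 Clec4d-positive nuclei. It was detected in 4 of 78 Cd9-positive nuclei there, 0.758 times the share in the other nuclei. Among members with at least 20 positive nuclei, the share was at least 2 times higher for 1 of 2 in taPVAT (background 16.4%), 2 of 2 in BAT (33.2%), 1 of 1 in 10x (37.9%), 2 of 3 in the mesPVAT-labelled library (57.9%) and 1 of 3 in the RP-labelled library (43.3%), the last 3 on 1 or 2 shared nuclei each. At 1000 UMIs it was 0 of 1 in taPVAT (17.2%) and 0 of 1 in BAT (22.9%).

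Nuclei with at least 2 UMIs of the macrophage list were called macrophage-marked. They made up 45.7% of cow nuclei and 2.62% to 13.7% of rat nuclei, and at 200 UMIs per nucleus 4.75% and 0.741% to 2.86%. In deep nuclei the rule was not specific. Of the 276 cow nuclei above the limits, 94.9% passed it. With the stromal progenitor, pericyte and smooth muscle, adipocyte and endothelial lists in its place, 97.8%, 94.6%, 93.5% and 90.2% passed. The remaining lists gave 5.07% (mesothelial) to 67.4% (lymphocyte). A marked cow nucleus is thus not by itself a macrophage. In the cow, 56.1% of marked nuclei (53.0 to 59.1) held a member UMI, against 25.9% of the others. In the rat the share was 3.25% in 10x (1.06 to 7.41), 9.20% and 6.49% in the mesPVAT- and RP-labelled libraries, 12.7% in taPVAT (9.48 to 16.5) and 19.1% in BAT (13.9 to 25.3). Thinned to 1000 UMIs, where depths match, it was 29.8% in the cow (25.7 to 34.3), 7.69% in taPVAT (3.58 to 14.1) and 3.77% in BAT (0.460 to 12.98). The nuclei kept were not matched, as those under 1000 UMIs were left out: 0 in the cow, 1119 in taPVAT and 770 in BAT. The taPVAT macrophage-like cluster described below had a median of 905.5 UMIs, against 1296 in the other clustered nuclei. Thinned to 200 UMIs the cow did not stand apart, with 4.59% (1.51 to 10.4) against 2.86% in the mesPVAT-labelled library, 0% in the RP-labelled library, 1.39% in taPVAT and 4.76% in BAT, on 0 or 1 nuclei with a member in each rat library.

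Member CPM in marked over other nuclei was 3.24 in the cow (2.94 to 3.57), 1.83 in taPVAT (1.32 to 2.50) and 1.88 in BAT (1.34 to 2.61). In the cow it was 3.53 (2.94 to 4.24) at 1000 UMIs per nucleus and 1.14 (0.361 to 2.76) at 200. It was 1.38 in 10x (0.497 to 3.11), 1.25 in the mesPVAT-labelled library (0.786 to 1.93) and 0.634 in the RP-labelled library (0.201 to 1.53), intervals that all include 1. In the cow the ratio was 15.01 for Olr1, 12.2 for Clec4d, 5.91 for Gpnmb, 3.58 for Spp1, 3.41 for Trem2 and 2.34 for Cd9. These 6 of 8 members passed 2-fold, beside 7.70% of genes, and Mmp12 (1.89) and Atp6v0d2 (1.15) did not. The ratio of Trem2 rested on 18 UMIs against 2, and its interval (0.815 to 30.3) includes 1. In taPVAT, Gpnmb (2.19) and Clec4d (9.90) of 4 counted members passed, beside 6.16% of genes. Spp1 was counted as lower there at 0.360, on 1 UMI against 11, and its interval (0.00836 to 2.48) includes 1. In the macrophage-like cluster of taPVAT described below, the Spp1 ratio was 1.48 (0.0345 to 10.2). In BAT, Cd9 (2.04) was the 1 member counted and passed (5.88%). No member passed in 10x (0 of 2, background 6.43%), the mesPVAT-labelled library (0 of 1, 4.74%) or the RP-labelled library (0 of 2, 0.774%). Those counted in 10x, Trem2 and Olr1, had 0 UMIs in marked nuclei and 10 and 14 in the others. In the RP-labelled library, 0 of 25 Atp6v0d2 UMIs and 3 of 31 Gpnmb UMIs lay in marked nuclei. In the mesPVAT-labelled library the figures were 5 of 24 and 9 of 36. The Atp6v0d2 ratio of marked to other nuclei was 1.21 in the mesPVAT-labelled library (0.352 to 3.34) and 0 in the RP-labelled library (0 to 1.98), intervals that include 1. A single barcode of 33495 UMIs in the mesPVAT-labelled library held 7 of the 8 members and no Csf1r UMI.

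Clustering without the members gave macrophage-like clusters in 4 libraries: 248 nuclei in 10x (leading genes Ms4a4a, Mrc1 and Cd163), 172 in taPVAT (Apobec1, Cd163 and F13a1), 121 in BAT (Lilrb4, Myo1g and Csf1r) and 252 nuclei of 2 clusters in the cow. No cluster of the white-fat Parse libraries from the rat could be named so. In the rat clusters the members were sparse. The taPVAT cluster held 7 of 42 clustered Gpnmb UMIs, 6 of 12 Clec4d UMIs and 0 of 81 Cd9 UMIs. That of BAT held 4 Gpnmb, 2 Spp1, 5 Cd9 and 4 Clec4d UMIs, and that of 10x held 4 of the 8 clustered Trem2 UMIs. In BAT the Clec4d ratio of cluster to other nuclei was 31.8 (5.39 to 217) and in taPVAT 16.3 (4.37 to 61.1), on 4 and 6 UMIs in the clusters. Few members could be counted at 10 UMIs, and none passed 2-fold: 0 of 2 in 10x (background 6.47%), 0 of 1 in taPVAT (7.65%) and 0 of 0 in BAT (7.73%). Those counted were Olr1 and Cd9 in 10x and Cd9 in taPVAT, where its ratio was 0 (0 to 0.761). Under that minimum, the ratio was 22.2 for Trem2 in 10x (4.13 to 119) and 3.27 for Gpnmb in taPVAT (1.22 to 7.46). That of Trem2 rested on 4 UMIs in 3 nuclei of the cluster. In the macrophage-marked nuclei of 10x, Trem2 had 0 UMIs, against 10 in the others (ratio 0, 0 to 11.1). For the 8 members summed the ratio of cluster to other nuclei was 2.47 in BAT (1.37 to 4.13), 1.74 in taPVAT (0.986 to 2.87) and 1.32 in 10x (0.473 to 2.97). An unnamed taPVAT cluster of 95 nuclei, led by P2ry10, Lilrb4 and Myo1g, held 115 Csf1r UMIs and only 3 Gpnmb and 2 Clec4d UMIs.
In the cow clusters the members were dense: 45.8-fold over other nuclei for Olr1 (20.7 to 120), 13.8-fold for Clec4d, 13.5-fold for Gpnmb (11.1 to 16.5), 7.79-fold for Spp1, 5.30-fold for Cd9 and 2.67-fold for Atp6v0d2. All 6 members that could be counted passed 2-fold, beside 11.0% of genes. Mmp12 had 0 UMIs in these clusters and 4 elsewhere. Trem2 had 7 and 4, or 6.26 against 0.557 CPM (11.2-fold, 2.86 to 52.3), under the minimum of 10 UMIs. As background, the members were found in adipocyte-like cow nuclei too, in 5.19% of them for Gpnmb, 3.70% for Spp1 and 10.4% for Cd9, against 35.7%, 17.1% and 44.0% of macrophage-like nuclei.

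Within the cow, most members were higher in 1 of the macrophage-like clusters than in the other. The larger (143 nuclei, median 4794 UMIs, leading genes ITGAM, SLC11A1, VSIG4 and LIPA) held 297 Gpnmb, 148 Spp1, 50 Olr1, 378 Cd9, 15 Clec4d, 12 Atp6v0d2 and 5 Trem2 UMIs. The smaller (109 nuclei, median 2610 UMIs, leading genes MRC1, CSF1R, F13A1 and LYVE1) held 20, 5, 0, 27, 0, 3 and 2. In CPM, Gpnmb was 392 against 55.3 (7.098-fold, 4.51 to 11.8), Spp1 195 against 13.8 (14.1-fold, 5.93 to 44.2) and Cd9 499 against 74.6 (6.69-fold, 4.53 to 10.3). Olr1 was at least 7.97-fold and Clec4d at least 2.39-fold higher in the larger cluster. Thus 5 of 6 members passed 2-fold in this direction and 0 in the other, beside 15.5% and 10.0% of genes.
Mrc1 went the other way, at 162 against 895 CPM, and so did Lyve1 at 6.60 against 213 CPM. Some other genes of the macrophage list did not follow them. Cd163 was at 1322 against 1404 CPM (0.942-fold, 0.846 to 1.05) and Mertk, a receptor for uptake of dying cells, was 3.54-fold higher in the larger cluster (2.94 to 4.29). Of 11 list genes 2 were higher in the larger cluster and 5, Mrc1 and Lyve1 among them, in the smaller. The summed list was at 4757 CPM in the larger and 7176 in the smaller. The members took no part in the clustering, whereas these genes did, so their values describe the clusters only.

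**Figure D3:**
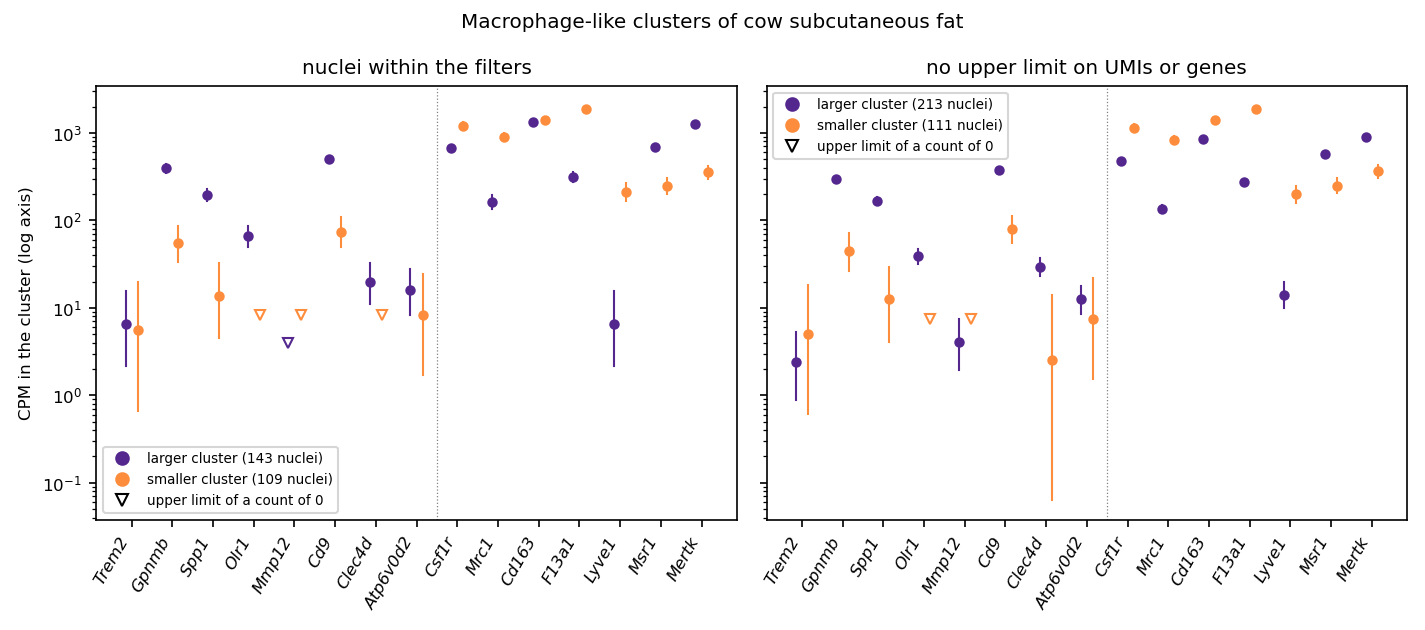
CPM of the members (left of the dotted line) and of macrophage genes in the larger and smaller macrophage-like clusters of the cow, on a log axis with exact Poisson 95% intervals, for nuclei within the filters (left panel) and with no upper limit on UMIs or genes (right panel). Gpnmb, Spp1, Olr1 and Cd9 are higher in the larger cluster in both panels, and Mrc1, F13a1 and Lyve1 in the smaller.

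The filters bear on these values, because nuclei above the limits held 65.6% of the cow's Gpnmb UMIs, 61.4% of Spp1, 55.7% of Cd9, 53.3% of Olr1, 78.0% of Clec4d and 77.8% of Mmp12. In CPM, Gpnmb was at 105 above and 56.4 below the limits, Spp1 at 52.0 and 33.6, Olr1 at 7.62 and 6.87, and Clec4d at 9.15 and 2.65. With no upper limits, an alternative added after the data were seen, the clusters held 213 and 111 nuclei. Gpnmb was then 6.63-fold (4.16 to 11.2), Spp1 13.4-fold (5.71 to 41.6) and Cd9 4.67-fold (3.29 to 6.87) higher in the larger. Of 7 counted members 5 passed 2-fold in that direction and 0 in the other, beside 16.0% and 7.26% of genes. An adipocyte-like cluster of 224 nuclei with a median of 8698.5 UMIs then held 299 Gpnmb, 123 Spp1 and 324 Cd9 UMIs. It also held 439 Csf1r and 289 Ptprc UMIs, and the part of doublets in it was not tested.

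Up to 4 members, nuclei with more members were deeper and more often held Csf1r. Of cow nuclei with no member, 14.3% held a Csf1r UMI at a median of 2657 UMIs. With 1, 2 and 3 members the shares were 26.0%, 52.4% and 79.5%, at medians of 4502, 10855.5 and 14581 UMIs. Among the 62 nuclei with 4 or 5 members, 91.9% held Csf1r, the median was 25707.5 UMIs and 75.8% lay above the filters. In these 62 nuclei the macrophage list stood at 2043 CPM and the adipocyte list at 3009 CPM. In nuclei with no member the values were 701 and 2911 CPM.

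**Figure D4:**
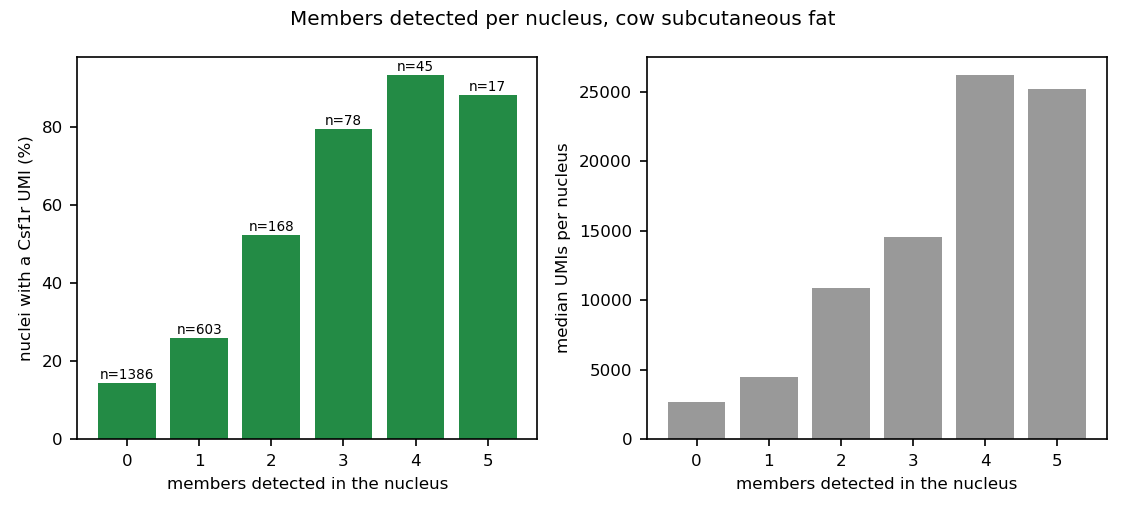
Share of cow nuclei with a Csf1r UMI (left, %) and median UMIs per nucleus (right) by the number of members detected in the nucleus, with the number of nuclei above each bar. Both rise together, from 14.3% and 2657 UMIs with no member to 79.5% and 14581 UMIs with 3. With 4 members they are 93.3% and 26193 UMIs (45 nuclei), and with 5 they are 88.2% and 25222 UMIs (17 nuclei).

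Pairs of members shared nuclei in the cow. Of 197 Spp1-positive nuclei, 90 held Gpnmb, where 29.0 would be shared if the genes were independent at the observed shares. Of 68 Olr1-positive nuclei, 42 held Gpnmb (10.0 expected) and 34 held Spp1 (5.83). Atp6v0d2 shared 28 nuclei with Gpnmb (10.4 expected) and 2 with Olr1 (2.10). These counts are a description in which depth is shared by both genes, and at 1000 UMIs per nucleus Gpnmb and Spp1 shared 7 nuclei (2.65 expected) and Gpnmb and Cd9 15 (7.55).

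By the measure of CPM in member-positive over member-negative nuclei, the named cow genes most like Gpnmb (338 positive nuclei) were MCOLN3, a lysosomal calcium channel, at 10.2 times, CLEC4D, itself a member, at 8.89 times and SLC11A1, a metal transporter of phagosomes, at 7.42 times. Those most like Cd9 (676 nuclei) were MCOLN3 at 9.24 times, MMP19 at 7.09, KCNN4 at 5.57 and LIPA (lysosomal acid lipase) at 5.40. For Spp1 (197 nuclei) they were MMP19 at 5.55, OLR1 at 5.35 and GK (glycerol kinase) at 4.90, and for Olr1 (68 nuclei) CLEC4D at 8.51 and PLEK at 8.31. S100A12 led for Clec4d (57 nuclei, 13.3 times, on 9 UMIs against 6). Member-positive nuclei were deeper than the rest in each case.

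Sites outside macrophage-like nuclei were also found. In the 10x library, 27 of 77 clustered Cd9 UMIs lay in a cluster led by Foxp2, Prox1 and Glis3 and 26 in a cluster led by Wfdc21 and Gcnt2, which also held 10 of 13 Olr1 UMIs. In BAT the most Cd9 UMIs, 23, lay in a pericyte and smooth muscle-like cluster led by Myh11, Acta2 and Eln. In the cow, 35 Spp1 UMIs lay in a cluster of 155 nuclei led by ADAM23, TMEM178B and RASGEF1C. A stromal progenitor-like cow cluster of 230 nuclei held 102 Cd9 and 41 Gpnmb UMIs.

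Genes around the members in the same pathways were counted from lists. Over all 11075 genes that could be counted, 5.74% were higher and 4.67% lower in the cow than in each rat library. In the TREM2 pathway the kinase Syk was the 1 of 7 list genes higher in this sense. Of 25 genes of lysosome and lipid handling, 23 were in the files of both species, 7 were higher against each rat library (Npc1, Ctss, Cd68, Abca1, Fabp5, Lgals3 and Anxa2) and 3 lower (Npc2, Ctsl and Abcg1). Against BAT alone this list split evenly, with 11 of 23 counted genes higher and 10 lower in the cow (30.2% and 19.6% of all genes). Against taPVAT it was 9 and 9 (24.5% and 21.6%), and against 10x 8 and 11 (29.8% and 22.9%). The white-fat Parse libraries differed. Against the mesPVAT-labelled library it was 12 and 4 (16.8% and 31.4%), and against the RP-labelled library 11 and 3 (21.0% and 29.9%). The median log2 fold of the list was -0.22 over BAT and -0.20 over taPVAT, beside 0.27 and 0.12 for all genes, whereas that of the counted members was 2.46 and 2.50. Over the mesPVAT- and RP-labelled libraries and 10x the list was at 1.14, 0.90 and -0.88, beside -0.21, -0.01 and 0.41 for all genes. The counted members were at 0.85, 1.12 and 1.48 there. These medians leave out members under the minimum of 10 UMIs, all of them lower in the cow. They were Trem2 (0.251-fold), Mmp12 (0.129) and Clec4d (0.558) against the RP-labelled library. Mmp12 (0.197) was left out against the mesPVAT-labelled library, and Trem2 (0.866) and Mmp12 (0.909) against taPVAT.
Of the osteopontin receptors, Cd44 alone of 7 was higher in the cow than in each rat library. The same held for Tfec among 4 MiT transcription factors, Mmp19 among 7 metalloproteinases and inhibitors, Clec12a among 6 C-type lectins, and Msr1 and Cd163 among 7 scavenger receptors, of which 6 were in the files of both species. These single genes are counts beside that background and not a result about the lists. Of the 7 V-ATPase, 4 tetraspanin and 8 osteoclast genes in both, none was higher in the cow than in every rat library.

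Between the cow's macrophage-like clusters, 15 of 23 counted genes of lysosome and lipid handling were higher in the larger and 1 lower, beside 15.5% and 10.0% of genes. They included Lgals3 (galectin-3) at 547 against 24.9 CPM, Lpl (lipoprotein lipase) at 540 against 35.9, Cd36 (a fatty acid transporter) at 1992 against 199, Fabp4 at 251 against 27.6 and Lipa at 619 against 77.4. The cholesterol exporter Abcg1 was the 1 lower, at 13.2 against 33.2 CPM. Mitf, a regulator of lysosomal genes, was at 1487 against 434 CPM, Cd44 at 642 against 160 and the osteopontin-binding integrin subunit Itgb3 at 124 against 22.1, whereas Itga9 was at 77.9 against 240 CPM. Of V-ATPase subunits 3 of 7 were higher and none lower. Tyrobp was at 25.1 against 11.1 CPM on 19 and 4 UMIs, and Trem2 itself at 6.60 against 5.53 CPM (1.19-fold, 0.196 to 12.5). These list genes took part in the clustering, so their values describe the clusters. Markers of other cell types differed too. Of 7 lymphocyte markers counted, 2 were higher in the smaller cluster, the B cell genes Bank1 (56.8 against 216 CPM) and Ms4a1 (0 against 38.7), and none in the larger, and the summed list was at 207 against 431 CPM. Of the dendritic markers Flt3 was higher in the smaller cluster (6.60 against 44.2 CPM), with the list at 35.7 against 91.2 CPM. Of 7 endothelial markers counted, Vwf was higher in the larger cluster (593 against 116 CPM) and Erg in the smaller (38.3 against 82.9), and of 4 adipocyte markers counted none passed 2-fold. The part of these cell types in the difference between the clusters was not tested.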

How the data were processed

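Nuclei of 6 libraries, 1 per condition, were analysed. The deposited matrices hold counts, raw UMI counts per gene and nucleus made by the authors. The 10x file was written by Cell Ranger 7.1.0, the Parse files come from the Parse pipeline, and FastQC and Scanpy are named in the submitters' processing notes. Total counts were 845316 to 16827260 per library. Members and gene lists were chosen with earlier results of these data known. All nuclei entered the sums, and CPM, shares and ratios carry exact 95% Poisson, binomial (Clopper-Pearson) and conditional intervals, which cover counting error only. A count of 0 was set to its limit of 3 UMIs. Genes were matched between species by symbol, and a gene was higher when at least 2-fold apart with at least 10 UMIs in the higher library. With no replicates, no test was made. Thinning drew 200 or 1000 UMIs per nucleus without replacement, and shallower nuclei were left out (at 200, 3788 nuclei of the 10x, 476 of the mesPVAT-labelled, 1302 of the RP-labelled and 0 of the other libraries; at 1000, 0 of the cow, 1119 of taPVAT and 770 of BAT). Clustering used Scanpy 1.11.5 and leidenalg 0.10.2 on nuclei with 100 to 15000 UMIs, at most 4500 genes and at most 3% mitochondrial UMIs, with the members left out and each nucleus scaled to 1000 UMIs and log-transformed (2000 variable genes, 30 components, resolution 1.0). A cluster was named from at least 3 raised markers of a fixed list, so names are rebuilt here and may differ from the study's. Doublets were not called. The named genes were the members, Ptprc, Csf1r and Mrc1, list genes past 2-fold, the 5 genes most like each member with at least 30 positive nuclei (those without a symbol are not printed) and the leading genes of clusters. A few list genes and clusters outside that rule were named after their values were seen. Call rules and intervals were tested on simulated Poisson library sums. That cannot show how the intervals hold where UMIs clump in single nuclei.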

Additional observations from a re-analysis of the deposited data

How the results depend on the processing

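The analysis gave 22 results and 202 values under other settings, of which 159 stayed within the limits set for a change, 43 moved and 0 reversed. Only a fold or ratio whose main interval excluded 1 could be called reversed. The counts, the shares and the marked-over-other ratios of 10x and the mesPVAT- and RP-labelled libraries could not. That ratio fell from 1.25 to 0.996 in the mesPVAT-labelled library under the study's filters. In 10x it fell from 1.38 to 0.988 with at least 3 marker UMIs. Under the study's filters the summed fold of the cow was 2.35 over 10x, 1.75 over the RP-labelled library, 5.93 over taPVAT and 7.34 over BAT, and 46.4% of marked cow nuclei held a member. With at least 500 UMIs per nucleus the fold over 10x was 1.33 (0.980 to 1.86), 2 members were higher than in 10x, and 20% of marked 10x nuclei held a member. Without Cd9 the folds were 5.44 (10x), 2.48 (mesPVAT-labelled), 1.495 (RP-labelled) and 13.7 (BAT). The share of marked nuclei with a member followed how they were marked. With 1 marker UMI it was 8.44% in taPVAT, 12.1% in BAT and 48.4% in the cow, with 3 it was 15.1% (mesPVAT-labelled), 27.1% (BAT) and 63.0% (cow), and with Ptprc, Csf1r or Mrc1 it was 8.70% (taPVAT) and 12.99% (BAT). Thinned to 200 UMIs it was 2.86% (mesPVAT-labelled), 0% (RP-labelled), 1.39% (taPVAT), 4.76% (BAT) and 4.59% (cow), and to 1000 UMIs 7.69%, 3.77% and 29.8% in the last 3. In macrophage-like clusters at resolution 1.0, 0.5 and 2.0 it was 7.56%, 8.25% and 6.63% (taPVAT), 11.6%, 12.2% and 10% (BAT), and 63.5%, 50% and 65.6% (cow). The ratio of member CPM in marked over other nuclei was 2.18 (mesPVAT-labelled), 0 (RP-labelled), 7.501 (BAT) and 1.14 (cow) at 200 UMIs, 2.57 in taPVAT at 1000 UMIs and 1.28 in taPVAT with 1 marker UMI. Causes were not tested. Markers without Mrc1, Lyve1 and Stab1, and markers in the files of both species, chosen after seeing the data, moved none of these shares or ratios. Member values of the 10x library, whose median is 161 UMIs, were not thinned, and thinning to 1000 UMIs was run in the 3 deepest libraries. No paired analysis was possible because each condition had 1 library.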
